A study of Mus musculus with 3 samples.

Results

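The genes described here are 37 members of the vacuolar ATPase and of the lysosomal membrane, taken as every probe of a list set by gene function. The list was chosen with earlier results of these data known. The list holds 18 V-ATPase genes and 19 genes of other lysosomal membrane proteins, among them Lamp2. Of the 37 genes, 36 had a matched probe, giving 45 of the 55681 probes on the array. For 35 genes, with 43 probes, the signal was well above background on all 3 arrays. Cd68, a heavily glycosylated macrophage protein, had no matched probe here, and Atp6v0d2, the d subunit form of osteoclasts and macrophages, did not rise clearly above background with either of its 2 probes. Its values are therefore not interpreted.

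The study measured gene expression in NIH3T3 cells, an immortalized mouse fibroblast line, to ask how a compound made to activate chaperone-mediated autophagy (CMA) changes transcription compared with a blocker of retinoic acid receptor alpha (RARα). Confluent wild-type cultures received 20 µM AR7, the CMA activator, or 20 µM BMS614, the RARα antagonist, and were collected after 24 h, beside untreated cells (None). All cultures were kept in the same serum-containing medium, and both compounds were dissolved in DMSO. The labels do not say whether the untreated cells received DMSO, so that compound and solvent cannot be told apart against None. RNA was hybridized to one-colour Agilent arrays, 1 array per condition and all 3 on 1 slide, so that the differences cannot be checked against replicates and none was tested. Because the RNA came from whole cultures of a single cell line, fewer cells of one kind and less RNA per cell cannot be told apart.

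The V-ATPase is the proton pump that acidifies lysosomes. Its membrane sector, V0, carries protons through the membrane, and its cytosolic sector, V1, hydrolyses ATP to drive them, while accessory proteins help the pump to assemble and reach the right membrane. The lysosomal membrane also carries glycoproteins that line its inner face, sterol carriers, ion channels, amino acid transporters and the Ragulator complex, which docks the Rag GTPases and mTORC1. One splice form of Lamp2, LAMP2A, is the receptor through which CMA substrates cross the membrane.

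Median spot intensity at the 75th percentile was 692 without treatment, 780.5 with AR7 and 909 with BMS614, and 55.4%, 61.3% and 61.8% of probes were well above background. Normalization brought the arrays to one distribution, and levels are given as log2 normalized intensity. Differences are log2 differences between 2 arrays. Each carries the SD of the difference expected from 1 spot to another, estimated at similar brightness from probes that each array carries 10 times. For a probe printed more than once, this SD was divided by the square root of its number of spots, which lowers its threshold. A gene is called higher or lower, and is said to have risen or fallen, only where its difference passed 2 of these SD. This SD covers spot error only. Variation between cultures, labelling reactions and hybridizations is not in it. By the brightest probe of each gene, 11 of 12 fibroblast markers were well above background on all 3 arrays, Col1a1, Col1a2, Vim and Fn1 among them and Fap the exception. So were 2 of 4 epithelial markers (Cdh1 and Krt8, but not Epcam or Krt18), 2 of 3 endothelial markers (Pecam1 and Kdr, but not Cdh5) and 7 of 8 macrophage and osteoclast markers (Csf1r and Itgam among them, but not Ptprc). Probes of one marker could differ, as a second Kdr probe, printed 10 times, was above background on none of the arrays. Itgam read 14.66 without treatment with its brightest probe, but 6.94 and 5.64 with its others. Adgre1 and Acp5 were dim even by their brightest probes, at 5.79 and 6.82 without treatment. The part of other cell types in the members' values was not tested.

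None of the 43 member probes changed 2-fold in any comparison. Over all probes, 1.62% did with AR7 against None, 1.82% with BMS614 against None and 1.73% with AR7 against BMS614. At 1.2-fold, 2 member probes passed with AR7 against None, where 22.4% of all probes did, none passed with BMS614 against None, where 25.1% did, and 3 passed with AR7 against BMS614, where 25.0% did. The largest absolute log2 difference of any member probe was 0.41 with AR7, 0.25 with BMS614 and 0.43 between the compounds. Most members were bright, whereas all probes include many dim ones, for which spot error is wider. For AR7 against None the SD of repeated spots was 0.425 at the lowest brightness and 0.049 at the highest. The shares above were not matched for brightness, so they do not show that the members were steadier than other genes.

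Against the finer threshold of spot error, AR7 gave 6 higher member probes (14.0%) and 2 lower (4.7%), beside 8.97% and 8.51% of all probes. BMS614 gave 6 higher (14.0%) and 4 lower (9.3%), beside 12.9% and 12.7% of all probes. Between the compounds, 6 member probes were higher with AR7 (14.0%) and 3 were lower (7.0%), beside 12.7% and 12.4% of all probes. The shares were close to or below those of all probes, apart from 14.0% against 8.97% with AR7, and none is read as particular to the members. AR7 and BMS614 were both compared with the same untreated array, so an error of that array enters both differences of a gene. Counts of genes below use the brightest probe of each gene, whereas the shares beside them are of all probes. By the brightest probe of each of 13805 named genes, 9.6% rose and 8.9% fell with AR7. The shares were 13.9% and 12.3% with BMS614, and 14.0% and 14.4% between the compounds.

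**Figure D1:**
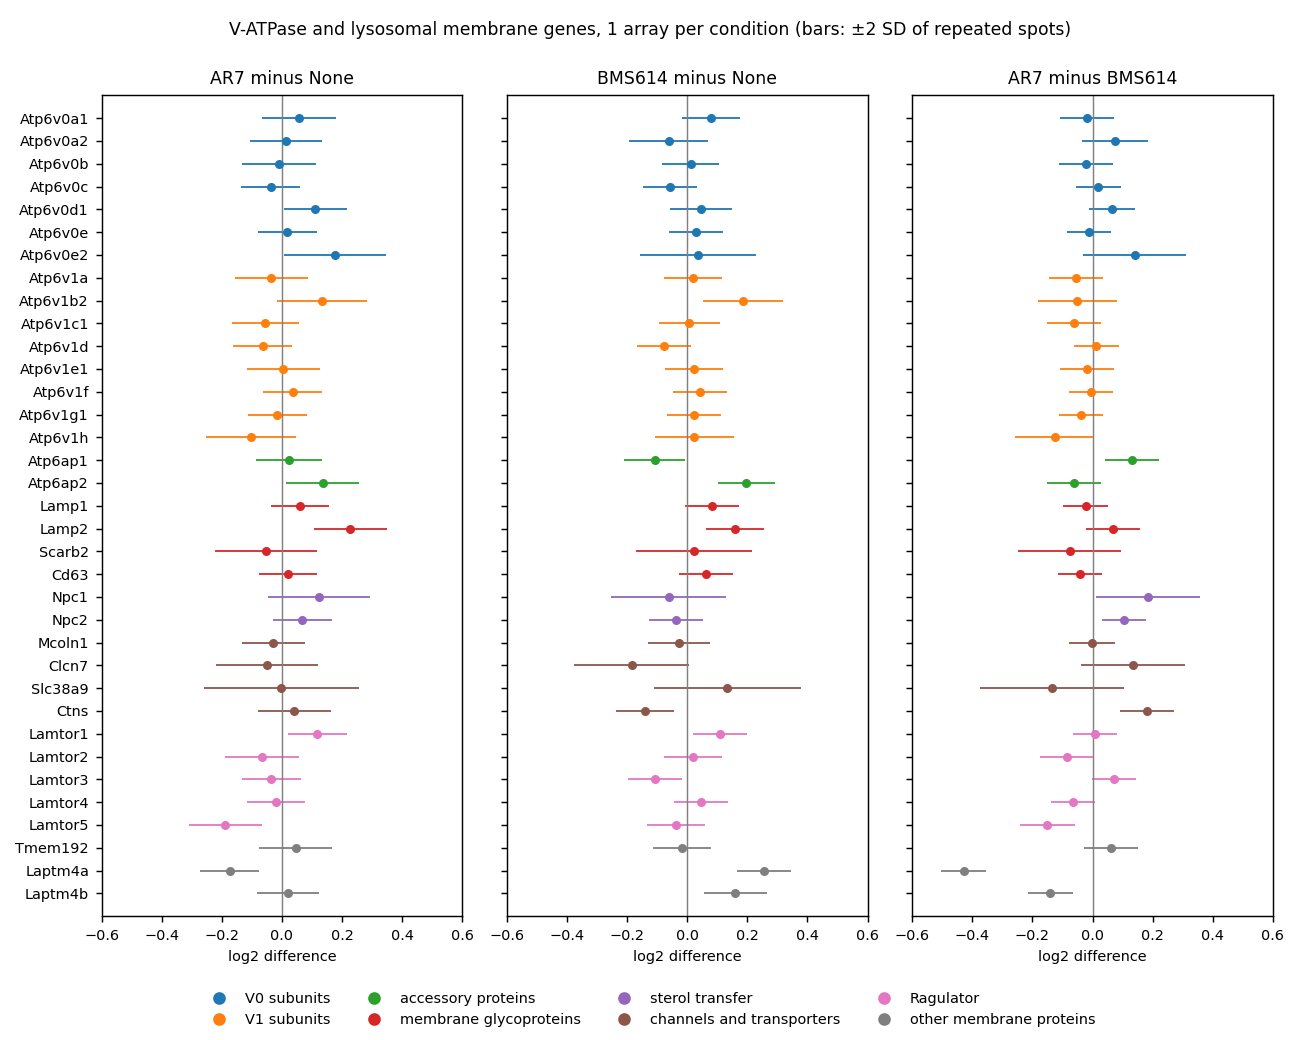
Log2 difference (horizontal axes) of the brightest probe of each of the 35 measured genes, with bars of 2 SD of repeated spots on either side and colours by role. Most bars cross 0, and the farthest point is Laptm4a at -0.43 in the comparison of AR7 with BMS614.

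As whole groups, both the pump and the membrane proteins had medians near 0. With AR7, 10 of 17 V-ATPase genes lay above their untreated level, with a median log2 difference of 0.013, and 9 of 18 lysosomal membrane genes did, with a median of 0.009. With BMS614 the numbers were 13 of 17, with a median of 0.023, and 10 of 18, with a median of 0.021. The median of all probes was -0.005 and -0.002 in the same comparisons. The share of all probes above their untreated level was 48.2% with AR7 and 49.3% with BMS614, beside 58.8% and 76.5% of the V-ATPase genes. Under other processing the AR7 median ran from -0.024 to 0.011 for the V-ATPase and from -0.034 to 0.019 for the membrane proteins. The BMS614 median ran from 0.0086 to 0.023 for the V-ATPase and from -0.027 to 0.023 for the membrane proteins, so that the sign held for the V-ATPase with BMS614 and depended on the processing for the others.

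**Figure D2:**
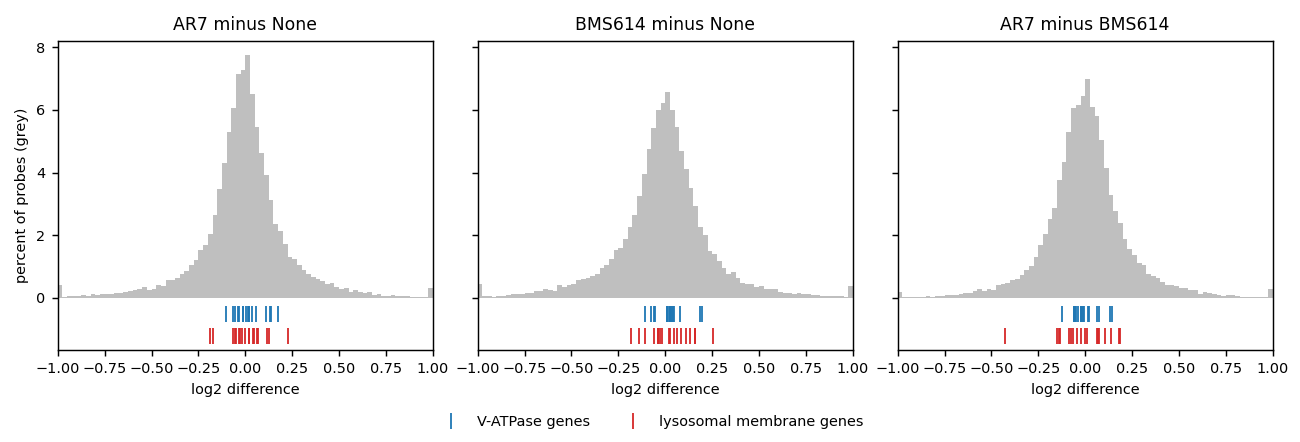
Distribution of log2 differences over all 30290 probes well above background on the 3 arrays (grey, percent of probes, values beyond 1 gathered in the end bars) with a tick for each of 17 V-ATPase and 18 lysosomal membrane genes. Both sets of ticks sit within the central part of each distribution, apart from Laptm4a at -0.43 in the right panel.

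Many genes of this class share an 8-base element known as the CLEAR core, TCACGTGA, which is bound by TFEB and its relatives TFE3 and MITF. The letters read the same on both strands and contain the shorter E-box CACGTG. In the RefSeq promoter windows of 250 bases before to 50 after the gene start, a window was at hand for 28 of the 37 genes, and TCACGTGA occurred in 5 of them (17.9%). It occurred in 304 of 27025 windows of all genes (1.12%) and in 1.96% of the windows of genes with a signal that cleared background on each array. CACGTG occurred in 9 member windows (32.1%), compared with 8.09% and 10.9%. The 5 stretches with TCACGTGA are shown with the element in capitals, 5′ to 3′ on the strand of the gene, so that its letters and surroundings can be set beside the genes' values.
Mcoln1: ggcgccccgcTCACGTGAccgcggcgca
Atp6v0d1: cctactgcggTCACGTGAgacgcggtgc
Atp6v1a: tttttttaaaTCACGTGAtaggcttaac
Clcn7: cgatgatagaTCACGTGAgacctgggcg
Atp6v0e: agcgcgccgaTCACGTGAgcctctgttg
They lie, on build GRCm38.p6, at chr8:3500463-3500490 on the plus strand for Mcoln1, chr8:105566051-105566078 on the minus strand for Atp6v0d1, chr16:44139374-44139401 on the minus strand for Atp6v1a, chr17:25133387-25133414 on the plus strand for Clcn7 and chr17:26676388-26676415 on the plus strand for Atp6v0e. With the first base of the gene counted as 0, the element begins at -46, -4, -132, 6 and 2 in the same order. The 5 genes had a median log2 difference of -0.029 with AR7 (range -0.05 to 0.11) and 0.020 with BMS614 (range -0.18 to 0.046). The 22 other measured members with a window had medians of 0.021 and 0.030. A match is a description of the letters and says nothing of whether the element is used in these cells.

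Of the V0 subunits, which form the proton path and its stator, 2 of 7 rose with AR7 (28.6%, beside 8.97% of all probes) and none passed with BMS614 (12.9% of all probes rose). Atp6v0e2, one of the genes for the small e subunit, read 8.78 without treatment, 8.95 with AR7 and 8.81 with BMS614, with the AR7 array the highest. Its log2 difference was 0.18 with AR7 (SD 0.085) and 0.036 with BMS614 (SD 0.096). Atp6v0d1, the d subunit that links V0 to the central stalk and one of the genes with the CLEAR core, read 12.40, 12.51 and 12.44 in the same order, a difference of 0.11 with AR7 (SD 0.052) and 0.046 with BMS614 (SD 0.052). The other V0 genes were Atp6v0a1 and Atp6v0a2, which encode forms of the large a subunit, Atp6v0b and Atp6v0c, which form the proton-carrying ring, and Atp6v0e, the other e subunit. Their differences ran from -0.038 for Atp6v0c to 0.057 for Atp6v0a1 with AR7, and from -0.062 for Atp6v0a2 to 0.078 for Atp6v0a1 with BMS614. Between the compounds no V0 gene passed, and the values ran from -0.022 for Atp6v0b to 0.14 for Atp6v0e2.

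No V1 subunit passed with AR7, and 1 of 8 rose with BMS614 (12.5%, beside 12.9% of all probes). That gene was Atp6v1b2, the widely expressed B subunit of the catalytic head, which read 9.60 without treatment, 9.73 with AR7 and 9.78 with BMS614. Both compound arrays lay above the untreated one, by 0.13 (SD 0.075) and 0.18 (SD 0.066). Atp6v1h, a regulatory subunit needed for ATP hydrolysis, read 10.21, 10.10 and 10.23, with AR7 the lowest array and a difference of -0.10 (SD 0.075) that did not pass. Under a different signal column, the scanner software's processed signal scaled to its 75th percentile, this difference was close to 0 at -0.0096. Atp6v1d, a part of the rotating stalk, read 14.52, 14.46 and 14.44, with the untreated array the highest and differences of -0.064 and -0.077 that also did not pass. The other V1 genes encode the catalytic A subunit (Atp6v1a), a peripheral stalk (Atp6v1c1, Atp6v1e1, Atp6v1g1) and the rotor's F subunit (Atp6v1f), and their differences ran from -0.055 for Atp6v1c1 to 0.035 for Atp6v1f with AR7 and from 0.007 for Atp6v1c1 to 0.042 for Atp6v1f with BMS614. A second probe of Atp6v1a gave -0.047 and -0.051. Between the compounds none of the 8 V1 genes passed. Their median was -0.044, and 12.5% of them had a value above 0, beside 49.4% of all probes.

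The accessory proteins, Atp6ap1 and Atp6ap2, took opposite directions with BMS614. Atp6ap2, also known as the prorenin receptor and needed for assembly of the pump, read 12.78 without treatment, 12.92 with AR7 and 12.98 with BMS614. Both compound arrays were above the untreated one, and it rose by 0.13 with AR7 (SD 0.061) and 0.20 with BMS614 (SD 0.048). With the processed signal the AR7 value was 0.063. Atp6ap1, a glycoprotein of the V0 sector that also guides assembly, read 11.44, 11.46 and 11.33, so that BMS614 was the low array. It fell by 0.11 with BMS614 (SD 0.051) and was 0.13 higher with AR7 than with BMS614 (SD 0.045), while the difference of AR7 from None was 0.022. Its second probe, which read 9.75, 9.74 and 9.56, gave -0.20 with BMS614 and 0.19 between the compounds, both past the threshold as well.

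Among the glycoproteins, Lamp2 stood out with AR7, where it ranked 1 of the 35 members, although Atp6v0e2 exceeded it when the processed signal or the deposited table was used (0.18 for Atp6v0e2 in both, against 0.14 and 0.17 for Lamp2) or when Lamp2 was averaged over its probes (0.13). Its brighter probe, A_52_P483280, read 13.15 without treatment, 13.38 with AR7 and 13.31 with BMS614. The untreated array was the lowest, and Lamp2 rose by 0.23 with AR7 (SD 0.061), which is 3.7 SD of repeated spots (0.14 with the processed signal), and by 0.16 with BMS614 (SD 0.048), where it ranked 5 of 35. The second probe of Lamp2, A_55_P2102126, read 10.55, 10.58 and 10.65, with differences of 0.036 (SD 0.060) and 0.099 (SD 0.066), so that neither passed on this probe. The probes differed from each other by 0.19 with AR7, where the SD of such a gap is 0.086. They match different transcript records, and which of the splice forms, LAMP2A included, each of them measures was not established here. Between the compounds the probes had opposite signs, 0.068 and -0.063, and neither value passed.

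No other glycoprotein passed in any comparison. Lamp1, the close relative of Lamp2 and a main structural protein of the lysosomal membrane, had differences of 0.060 with AR7 and 0.083 with BMS614. Scarb2 (LIMP-2), which carries beta-glucocerebrosidase to lysosomes, had -0.053 and 0.023, and Cd63, a tetraspanin of late endosomes, had 0.020 and 0.062. Set among the 18 membrane genes, Lamp2 ranked 1 with AR7, 3 with BMS614 and 6 in AR7 against BMS614. With BMS614 it was level with Laptm4b (0.16 for each), and with the processed signal Lamp2 was the higher (0.14 against 0.080).

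**Figure D3:**
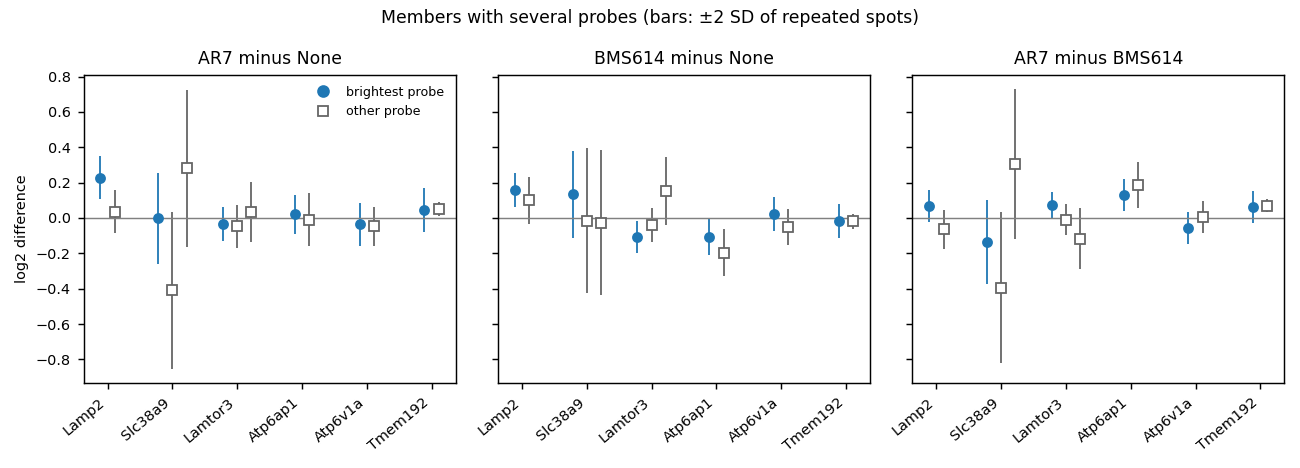
Log2 difference (vertical axes) of each probe of the 6 genes with several probes well above background, with bars of 2 SD of repeated spots on either side; circles mark the brightest probe and squares the others. The probes of Tmem192 lie together at 0.045 and 0.051 with AR7, whereas those of Slc38a9 spread from -0.41 to 0.28.

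Npc1 and Npc2, which hand cholesterol from the lysosomal lumen to its membrane, were both higher with AR7 than with BMS614. Npc1, the membrane protein of the pair, read 8.47 without treatment, 8.60 with AR7 and 8.41 with BMS614. AR7 was the highest array and BMS614 the lowest, with a difference of 0.19 between them (SD 0.086), but neither compound passed against None (0.12 and -0.062). Npc2, the soluble partner, read 15.39, 15.46 and 15.35 in the same order, with the arrays ranked as for Npc1. It was 0.10 higher with AR7 than with BMS614 (SD 0.037), and its differences from None were 0.068 and -0.037.

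Of the channels and transporters, Ctns alone passed. Ctns, or cystinosin, exports cystine from lysosomes, and read 12.61 without treatment, 12.65 with AR7 and 12.47 with BMS614. BMS614 was the low array, with a fall of 0.14 (SD 0.048), and AR7 exceeded it by 0.18 (SD 0.045), or by 0.12 with the processed signal and 0.11 in the deposited table. Clcn7, a chloride-proton exchanger, read 9.42, 9.37 and 9.24, and was the member with the most negative BMS614 difference, -0.18 (SD 0.096), just inside 2 SD. Mcoln1, the lysosomal calcium channel, was nearly level, at -0.029 with AR7 and -0.027 with BMS614. Both Clcn7 and Mcoln1 carry the CLEAR core shown earlier.

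Slc38a9, an amino acid sensor that signals arginine to mTORC1, was the member whose probes differed most with AR7, against None and against BMS614. With BMS614 against None the gap between probes was wider for Lamtor3 (0.26) than for Slc38a9 (0.16). Its brightest probe, A_52_P578768, read 7.69 without treatment, 7.69 with AR7 and 7.82 with BMS614. The other probes read 6.57, 6.16 and 6.56, and 6.01, 6.29 and 5.99. With AR7 the probes thus gave -0.0025, -0.41 (SD 0.22) and 0.28 (SD 0.22). They include both member probes that passed 1.2-fold with AR7, in opposite directions, and none of the 3 passed 2 SD of repeated spots, which are wide at this low brightness. No direction was therefore read for Slc38a9.

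The Ragulator subunits, which form the scaffold for the Rag GTPases, moved in both directions. Lamtor5 read 13.32 without treatment, 13.13 with AR7 and 13.28 with BMS614, so that AR7 was the low array, and its AR7 difference was the lowest of the members, although with the processed signal Laptm4a was lower (-0.20 against -0.17) and in the deposited table they were level. Lamtor5 fell by 0.19 with AR7 (SD 0.061) and lay 0.15 lower with AR7 than with BMS614 (SD 0.045), while BMS614 against None was -0.038. Lamtor1, the lipid-anchored subunit that holds the complex to the membrane, read 15.02, 15.14 and 15.13. Both compound arrays were above the untreated one, and Lamtor1 rose by 0.12 with AR7 (SD 0.049) and 0.11 with BMS614 (SD 0.045).

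The other Ragulator subunits moved less or depended on the probe. Lamtor3 read 14.16, 14.12 and 14.05 with its brightest probe, and fell by 0.11 with BMS614 (SD 0.045). Its other probes gave -0.039 and 0.15 in that comparison, and their mean with the first was 0.0023, so that the direction depended on the probe. Lamtor2 read 12.75, 12.69 and 12.77, with differences of -0.066 and 0.018 that did not pass, and Lamtor4 had -0.020 and 0.046.

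Laptm4a had the largest difference between the compounds and was the only member to pass in opposite directions with them. Laptm4a, a small membrane protein of late endosomes and lysosomes, read 13.95 without treatment, 13.77 with AR7 and 14.20 with BMS614. It fell by 0.17 with AR7 (SD 0.049) and rose by 0.25 with BMS614 (SD 0.045), so that the untreated array lay between the compounds. The direct difference of AR7 from BMS614 was -0.43 (SD 0.037), and it stayed between -0.46 and -0.43 under the 5 other ways of processing. A single probe measured this gene.

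Laptm4b, its relative, read 12.36, 12.38 and 12.52, with BMS614 the high array. It rose by 0.16 with BMS614 (SD 0.052), or 0.080 with the processed signal, and was 0.14 lower with AR7 than with BMS614 (SD 0.038). The AR7 difference from None was 0.020. Tmem192, a widely used lysosomal membrane marker, was measured by a probe printed 10 times, with a mean difference of 0.051 with AR7 (SE 0.023 over spots) and -0.018 with BMS614 (SE 0.018). AR7 exceeded BMS614 by 0.069 on average, in 10 of 10 spots, and the single-spot probe of the gene gave 0.062. The probe printed 10 times passed with AR7 (SD 0.019) and between the compounds (SD 0.018), where its SD is reduced by its number of spots. The brighter single-spot probe did not pass in any comparison (0.045 with AR7, SD 0.061). The 10 spots share 1 RNA sample per array and are not biological replicates.

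By array, 19 of the 35 members had their highest level with BMS614 (54.3%), 10 with AR7 (28.6%) and 6 without treatment (17.1%). Over all probes well above background the shares were 34.8%, 30.4% and 34.7%. Most of the gaps behind these ranks were within 2 SD of repeated spots, as the counts of called probes show.

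The rest of the pathway was followed through 79 further genes in 4 groups, of which 68 were well above background on all 3 arrays. With AR7, 7 of the 68 rose and 2 fell, with a median of 0.021. With BMS614, 10 rose and 6 fell, with a median near 0, and between the compounds 13 were higher with AR7 and 9 lower. With AR7 these shares were 10.3% and 2.9%, beside 8.97% and 8.51% of all probes. With BMS614 they were 14.7% and 8.8%, beside 12.9% and 12.7%. Between the compounds they were 19.1% and 13.2%, beside 12.7% and 12.4%.

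Of the transcription factors of the CLEAR element, Mitf read 12.63 without treatment, 12.65 with AR7 and 12.46 with BMS614, a fall of 0.17 with BMS614 (SD 0.048). Tfe3 read 13.11, 13.13 and 13.04 with its brightest probe, with differences of 0.021 with AR7 and -0.069 with BMS614. A second Tfe3 probe gave 0.15 with AR7 (SD 0.06), past the threshold, and 0.027 with BMS614. By their brightest probes, Mitf and Tfe3 were both higher with AR7 than with BMS614, by 0.18 for Mitf and 0.090 for Tfe3. Tfeb was dim, at 5.11, 5.13 and 4.80, with differences of 0.026 and -0.31 against SD of 0.42 and 0.35. Tfec was dim as well, at 6.46, 6.24 and 6.44, with differences of -0.22 and -0.017, so that no direction was read for either.

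The group of Rag GTPases and mTORC1 docking also holds Mtor, Rptor, Mlst8, Rheb and the Borcs genes. In it, Rraga read 11.90 without treatment, 11.86 with AR7 and 12.27 with BMS614. BMS614 was the high array, and Rraga, which encodes RagA, rose by 0.36 with it (SD 0.052) and was lower by 0.41 with AR7 than with BMS614. This matched Laptm4a in which array was the highest. In this group of 18 measured genes, 4 rose with AR7 and none fell (22.2% and 0.0%, beside 8.97% and 8.51% of all probes), and 3 rose with BMS614 and 1 fell (16.7% and 5.6%, beside 12.9% and 12.7%).

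Of the 15 measured isoforms and assembly factors of the pump, 1 rose and 1 fell with each compound (6.7% each). Over all probes, 8.97% rose and 8.51% fell with AR7, and 12.9% and 12.7% with BMS614. The BMS614 rise was that of Rnasek, at 0.079 (SD 0.016), by a probe printed 10 times. Atp6v1e2, a form of the E subunit known from testis, read 6.30 without treatment, 6.89 with AR7 and 6.66 with BMS614. It rose by 0.59 with AR7 (SD 0.22), and its BMS614 difference of 0.36 did not pass. This rise rests on 1 spot per array of a dim probe, close in level to Tfec.

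Of 31 measured further lysosomal membrane proteins, 2 rose and 1 fell with AR7 (6.5% and 3.2%, beside 8.97% and 8.51% of all probes), and 6 rose and 3 fell with BMS614 (19.4% and 9.7%, beside 12.9% and 12.7%). Mfsd8, or CLN7, read 5.13 without treatment, 4.37 with AR7 and 5.19 with BMS614. Its AR7 difference of -0.76 did not pass against an SD of 0.42. AR7 was lower than BMS614 by 0.82, past the threshold, but the probe of Mfsd8 was dim. Slc11a1, a metal transporter of macrophages, read 4.85, 5.26 and 4.51, and Tpcn2, a lysosomal ion channel, read 5.55, 5.64 and 5.96. Neither passed in any comparison, at differences of up to 0.75 for Slc11a1 and 0.41 for Tpcn2, as spot error is wide for dim probes.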

How the data were processed

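The deposited files hold spot intensity as read by the scanner software (Agilent Feature Extraction 10.7.3.1, Cy3), not normalized between arrays, and processed intensity values that served only as an alternative. The study's methods give RMA in the oligo package. Here, without it, the RMA convolution background was applied to the median pixel intensity, followed by quantile normalization over the 3 arrays, log2 and averaging of a probe's spots, in R 4.3.3 with limma 3.58.1 and Python 3.11.15. Controls and outlier-flagged spots were excluded. Probes were named through RefSeq accessions in a gene table of GRCm38.p6, which named 27235 of 55681, and a gene is represented by its probe of highest mean signal. Repeated spots (probes printed 10 times, in 10 bins of brightness) gave the SD of a difference. The counting rules were tested on simulated data. For the 2-fold count, a probe had to be well above background on 1 or both arrays compared (a dim value counted by its bound), and the 2 SD count required this on all 3. Values on each array are given for Lamp2 and, for each comparison, for the 5 members with the highest and the 5 with the lowest differences, and of the other pathway genes for the CLEAR factors and the 3 with the largest differences. Values of Atp6v0d1, Lamtor1, Npc2 and the other probes of Atp6ap1 and Slc38a9 were added after they were seen. The members and lists were chosen with earlier results of these data known. The number of arrays limits the precision. Other signals, scalings, thresholds, filters on dim probes and the mean over a gene's probes were tried as alternatives.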

Additional observations from a re-analysis of the deposited data

How the results depend on the processing

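No paired analysis was possible because every condition is represented by a single array. No member probe changed 2-fold with the processed signal, normexp, 75th percentile scaling or the deposited table, or at 1.5-fold (spike-in scaling was not run for this count), while a threshold of 1.2-fold gave 2 with AR7 against None and 3 with AR7 against BMS614. At 3 SD of repeated spots in place of 2, the probes past the threshold fell to 3 with AR7, 4 with BMS614 and 5 between the compounds. With 75th percentile scaling after the RMA background, 5 passed with AR7 in place of 8, and with the processed signal 17 passed between the compounds in place of 9. The cause was not tested. The mean over all probes turned Lamtor3 with BMS614 to 0.0023. Of 252 recomputed values of named members, 238 moved by less than 1 SD of repeated spots. Of 42 recomputed medians, 13 changed sign. Scaling on the spike-in controls moved the median of all probes by 0.11 with AR7 and 0.23 with BMS614 against None and -0.12 between the compounds, and members are given relative to it. With 1 array per condition, differences between cultures cannot be separated from those of the compounds.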
